A study of Mus musculus with 4 samples.

Results

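Heat shock proteins are molecular chaperones, proteins that bind other proteins while they fold, keep damaged ones from clumping and pass them on for refolding or breakdown. Their genes fall into an inducible set, which heat shock factor 1 (HSF1) switches on within minutes of heat, oxidants or other protein-damaging stress by binding repeated heat shock elements in their promoters, and a constitutive set that every cell transcribes. Heart muscle is rich in the small heat shock proteins, which guard the contractile apparatus, and the inducible genes are known to respond to the handling of tissue as well as to injury. The 10 genes described here were named by symbol and found in all 4 count tables, 10 of 32285 genes. They comprise 5 inducible members (Hspa1a, Hspa1b, Hsp90aa1, Hsph1 and Dnajb1), 3 constitutive members (Hspa8, Hsp90ab1 and Hspd1) and 2 small heat shock proteins (Hspb1 and Cryab).

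The counts came from Visium slides, on which a tissue section is laid over printed spots whose barcoded primers capture messenger RNA by its poly(A) tail, and each captured molecule is counted once by its unique molecular identifier (UMI). Vaped (V) C57BL/6J mice breathed e-vapor of Peach Ice vape juice (70VG/30PG, vegetable glycerin and propylene glycol) from JUUL pens in whole body chambers for 4 h a day on 5 d a week over 9 wk, starting at 6 to 8 wk of age, and Non-Vaped (NV) C57BL/6J mice were their controls. Each group held 1 male and 1 female, and 1 section of the upper pulmonary branches was read per mouse, so sex and the single animal cannot be told apart within a group. The 4 sections held 473 to 2053 spots and 6957392 to 34308556 UMIs. A spot can hold several cells of different types, and levels are given as counts per 1000000 UMIs (CPM) of the same section and region, a scale that counts molecules and is used here to compare sections and regions for the same gene, not one gene with another.

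Spots were sorted by marker genes that include no member. Alveolar spots (summed Sftpc, Sftpb, Hopx, Cldn18, Tmem100 and Calcrl at a fraction of 0.5 or more of their level over all spots) numbered 684 and 348 in the NV sections and 1564 and 1620 in the V sections (here and below, male then female). Cardiac muscle spots (not alveolar, with summed Tnni3, Myl7, Ryr2, Nppa, Myh7 and Pln at 10000 CPM or more) numbered 122 and 46 in NV and 0 and 111 in V. In mice, heart-type muscle also lies in the wall of the pulmonary veins. Skeletal muscle markers summed to no more than 5.41 CPM in the alveolar or cardiac muscle spots of any section, with Myh4 at 0 in all 4 sections. The section of the V male held no cardiac muscle, with cardiac markers at 18.2 CPM, a limit on every whole-section comparison of V with NV below.

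Hspa1a and Hspa1b encode the stress-inducible HSP70 proteins, whose products are almost identical. Both lie on the minus strand of chromosome 17 of GRCm38 as single protein-coding genes, Hspa1a at chr17:34969190-34972156 and Hspa1b at chr17:34956436-34959238, with 9951 bases between them. Their transcripts share 49.3% of 90-base windows of Hspa1a with Hspa1b, but none of the windows in the last 500 bases, the end from which the slides capture RNA. Promoters from RefSeq (GRCm38.p6) were held for 6 of the 10 members, and were searched for a pair of facing heat shock units, GAANNTTC or TTCNNGAA, each of which reads the same on both strands, in the 300 bases from 250 before the start to 50 after it. Of 32851 promoters, 15.1% held such a pair and 0.603% held 3 units in a row (GAANNTTCNNGAA or TTCNNGAANNTTC, which contain the pairs). A pair was found for 5 of the 6 members with a promoter (Hspa1a, Hspa1b, Hsph1, Hspd1 and Hspb1), beside 17.0% of 27025 genes counted the same way. Hsph1 and 1 of the 2 windows of Hspd1 (the other holds no pair) held 3 units in a row, beside 0.662% of genes. These letters are not in either window of Dnajb1. The 250 bases before the start are shown for 4 members, chosen because Hspa1a and Hspa1b carry the largest difference between V and NV and Hspd1 and Hspb1 are higher in muscle, each 5′ to 3′ on its own strand with matched pairs in capitals.
Hspa1a, minus strand, chr17:34972157-34972406: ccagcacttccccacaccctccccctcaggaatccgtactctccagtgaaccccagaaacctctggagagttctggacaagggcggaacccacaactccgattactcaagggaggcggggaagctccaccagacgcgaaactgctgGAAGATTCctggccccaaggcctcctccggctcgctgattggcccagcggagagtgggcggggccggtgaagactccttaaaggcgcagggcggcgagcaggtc
Hspa1b, minus strand, chr17:34959239-34959488: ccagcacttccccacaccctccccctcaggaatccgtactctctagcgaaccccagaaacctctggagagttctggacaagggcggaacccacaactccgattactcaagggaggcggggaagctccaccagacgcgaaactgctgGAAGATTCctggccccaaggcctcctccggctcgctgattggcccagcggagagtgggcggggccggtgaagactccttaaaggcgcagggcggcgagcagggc
Hspd1, minus strand, chr1:55087933-55088182: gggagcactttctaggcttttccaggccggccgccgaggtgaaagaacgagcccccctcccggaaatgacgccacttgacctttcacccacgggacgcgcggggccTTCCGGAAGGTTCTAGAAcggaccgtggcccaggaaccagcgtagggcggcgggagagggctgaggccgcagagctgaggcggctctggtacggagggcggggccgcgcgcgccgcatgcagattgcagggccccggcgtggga
Hspb1, plus strand, chr5:135887669-135887918: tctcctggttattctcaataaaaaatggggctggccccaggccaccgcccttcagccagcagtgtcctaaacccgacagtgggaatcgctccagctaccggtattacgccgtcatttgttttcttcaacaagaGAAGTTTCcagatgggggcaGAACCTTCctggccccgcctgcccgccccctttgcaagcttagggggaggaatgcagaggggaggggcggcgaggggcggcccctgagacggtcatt
The Hspa1a and Hspb1 windows have their first match 104 and 117 bases before the start, and the Hspa1a and Hspa1b stretches shown differ at 3 of 250 bases. The run in Hspd1 begins 144 bases before the start at which the stretch shown ends, and joins overlapping pairs into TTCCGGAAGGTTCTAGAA. That stretch lies inside the annotated span of the gene, chr1:55077835-55088243. The other Hspd1 stretch, chr1:55088244-55088493, lies directly upstream of that span, and its window holds no pair. Hsph1 has its 3 units, TTCTGGAAAGTTC, after the start, from base 37 of one annotated start and base 16 of the other. A match describes letters only and shows no binding.

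The first question was how the members differed between V and NV in like tissue, the alveolar spots. The clearest difference was in Hspa1a and Hspa1b. Hspa1a stood at 81.5 and 115 CPM in NV and at 7.58 and 19.0 CPM in V (male, then female), from 588, 435, 90 and 354 UMIs. Both V sections lay below both NV sections, and the edgeR log2 fold change of V against NV was -2.85 ± 0.48 (SE), a level 7.21-fold lower. Hspa1b stood at 61.3 and 105 CPM in NV and at 5.05 and 16.7 CPM in V, again with no overlap, and its log2 fold change was -2.88 ± 0.62 (SE). Less of this RNA per cell and fewer cells that carry it cannot be told apart in such sums.

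With 2 sections against 2, edgeR's quasi-likelihood test with Benjamini-Hochberg adjustment over 14348 genes called 0% of genes (adjusted p under 0.05 and a log2 change over 0.25), and neither gene was called (adjusted p = 0.999 for both). Hspa1a ranked 6 and Hspa1b 24 of 14348 by unadjusted p (edgeR, 0.00176 and 0.00505), and with Dnajb1 they made 3 of 10 members that were lower at an unadjusted p under 0.05, as were 1.68% of genes tested. The Wald test of DESeq2 on the same sums called 10 genes, 9 of them lower in V (0.0627% of genes tested), and both Hspa1a (adjusted p = 6.3e-06) and Hspa1b (adjusted p = 0.00057) were among the 9. Leaving out the V female gave edgeR log2 changes of -3.69 and -4.02 for the 2 genes and leaving out the V male gave -2.33 and -2.27, both genes called each time, whereas leaving out either NV section left no gene called. Without the V female 8 of 10 members were called lower (all but Hsp90aa1 and Cryab), beside 7.38% of genes tested, and without the V male 3 of 10 (Hspa1a, Hspa1b and Dnajb1), beside 0.598%. An exact permutation test of 2 against 2 cannot go below p = 0.333.

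**Figure D1:**
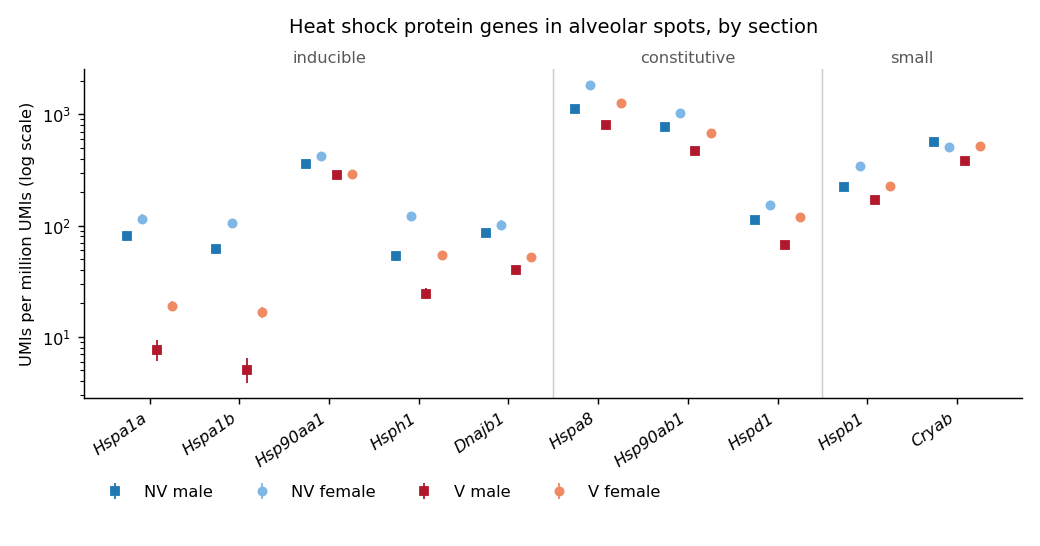
Level in CPM (log axis) of the 10 members in the alveolar spots of each section; squares are males, circles females, and bars are exact Poisson 95% intervals, which cover counting error only. Hspa1a and Hspa1b lie between 61.3 and 115 CPM in NV and between 5.05 and 19.0 in V, while Hspa8, Hspd1, Hsph1, Hspb1 and Cryab overlap between the groups.

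Dnajb1, the J-domain cochaperone that hands substrates to HSP70 (chr8:83608193-83612653), followed at a smaller size. It stood at 86.1 and 101 CPM in NV and at 39.7 and 52.0 CPM in V. The groups did not overlap, with a log2 fold change of -1.01 ± 0.20 (SE), rank 17 by unadjusted p, and adjusted p = 0.999 in edgeR. Leaving out the V male gave a log2 change of -0.81 and leaving out the V female -1.24, in fits that hold 1 V section and so no spread between V mice.

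Hsp90aa1, the stress-responsive form of cytosolic HSP90 (chr12:110690605-110702728), stood at 361 and 421 CPM in NV and at 286 and 293 CPM in V. The groups did not overlap here either, but the log2 fold change was only -0.42 ± 0.18 (SE) and was not called. Hsph1, an HSP110 nucleotide exchange factor for HSP70 (chr5:149614287-149636376), stood at 53.0 and 122 CPM in NV and at 24.5 and 54.4 CPM in V. The V female was level with the NV male, so the groups overlapped, and the log2 change of -1.11 ± 0.54 (SE) was not called. Within each group the female exceeded the male, by 1.21 on the log2 scale in NV and 1.15 in V, as much as V differed from NV. The female was also above the male in both groups for every other member but Cryab, which was lower in the NV female. For Hspa8 that gap was 0.71 in NV and 0.64 in V, beside a log2 change of -0.49 between V and NV. The share of all genes with that order was not counted.

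The constitutive members had smaller log2 changes than Hspa1a, Hspa1b, Dnajb1 and Hsph1 and larger ones than Hsp90aa1, and the difference between the classes was not tested. Hspa8, the HSP70 of unstressed cells (chr9:40800984-40810087), stood at 1116 and 1824 CPM in NV and at 807 and 1261 CPM in V, with the V female above the NV male. Hsp90ab1, the constitutive HSP90 (chr17:45567775-45573271), stood at 774 and 1039 CPM in NV and at 471 and 678 CPM in V and did not overlap between groups. Hspd1, the mitochondrial HSP60 chaperonin (chr1:55077835-55088243), stood at 112 and 153 CPM in NV and at 66.3 and 121 CPM in V and overlapped. Their log2 fold changes were -0.49 ± 0.34, -0.64 ± 0.27 and -0.48 ± 0.34 (SE), none called.

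Among the small heat shock proteins, Hspb1, the HSP27 that caps actin filaments and holds unfolded proteins (chr5:135887919-135889563), stood at 224 and 342 CPM in NV and at 169.8 and 228 CPM in V. Cryab, alpha B-crystallin (chr9:50751325-50756636), stood at 562 and 510.3 CPM in NV and at 383 and 520.2 CPM in V, the only member that was not lower in the V female than in the NV female. Both overlapped between groups, and their log2 changes of -0.49 ± 0.28 and -0.23 ± 0.23 (SE) were not called.

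All 10 members had a log2 fold change below 0 in the alveolar spots, where 48.7% of all genes tested did, and the members' median was -0.56 beside 0.0084 over all genes. Members at or below -1 were Hspa1a, Hspa1b, Hsph1 and Dnajb1, 4 of 10 beside 2.97% of genes tested. By class the median log2 change was -1.11 for the 5 inducible members, -0.49 for the 3 constitutive members and -0.36 for the 2 small ones. In 5 of 10 members (Hspa1a, Hspa1b, Hsp90aa1, Dnajb1 and Hsp90ab1) both V sections lay below both NV sections, as they did for 17.1% of genes tested. CPM values are shares, so a member can also move when the rest of a section's RNA does; the median gene moved by less than 0.1 on the log2 scale under either scaling in this comparison.

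**Figure D2:**
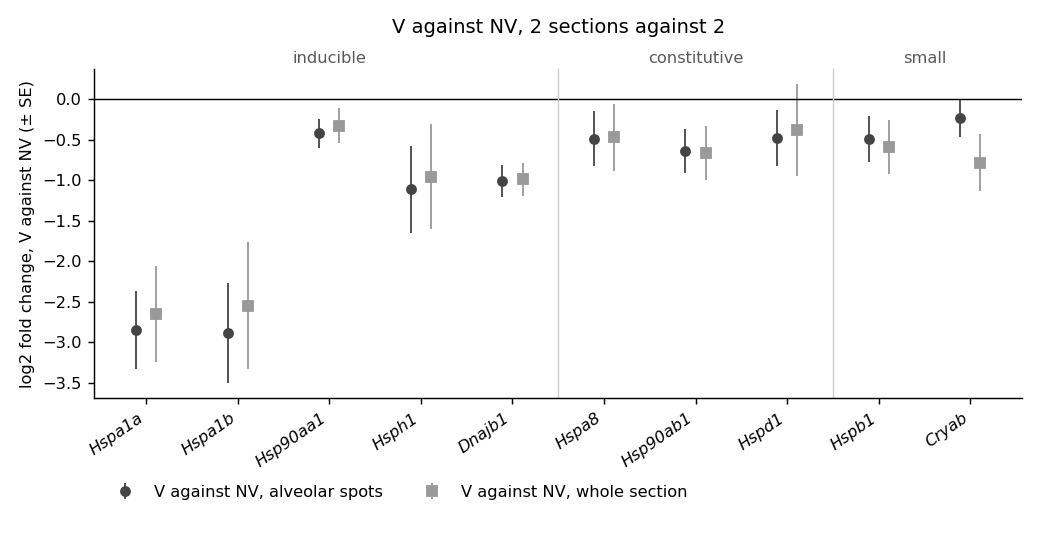
edgeR log2 fold change of V against NV with its standard error for the 10 members, in alveolar spots (circles) and over the whole section (squares), 2 sections against 2. All values lie below 0; Hspa1a and Hspa1b lie between -2.88 and -2.55, the other 8 between -1.11 and -0.23.

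The share of alveolar spots with a UMI was counted next, with every spot thinned to 3000 UMIs so that depth was equal. Hspa1a had a UMI in 19.3% and 26.9% of the alveolar spots of the NV sections and in 2.27% and 4.79% of those of the V sections, with exact binomial 95% limits of 16.2 to 22.7%, 22.0 to 32.2%, 1.55 to 3.21% and 3.73 to 6.04%. Without thinning the shares were 48.1%, 56.9%, 5.24% and 18.1%. A smaller share of V than NV spots had a UMI, and the most UMIs of Hspa1a in 1 spot were 20, 9, 2 and 5. At equal depth such a share falls with the level itself, so it is not separate evidence. It does not tell whether the difference was spread over the tissue or sat in a few spots. Hspb1 had thinned shares of 49.7%, 64.4%, 38.2% and 51.1%, and Hspa8 of 96.7%, 99.7%, 89.8% and 97.5%. Shallower spots left out numbered 78, 39, 201 and 220, and these limits cover counting error within a section only.

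**Figure D3:**
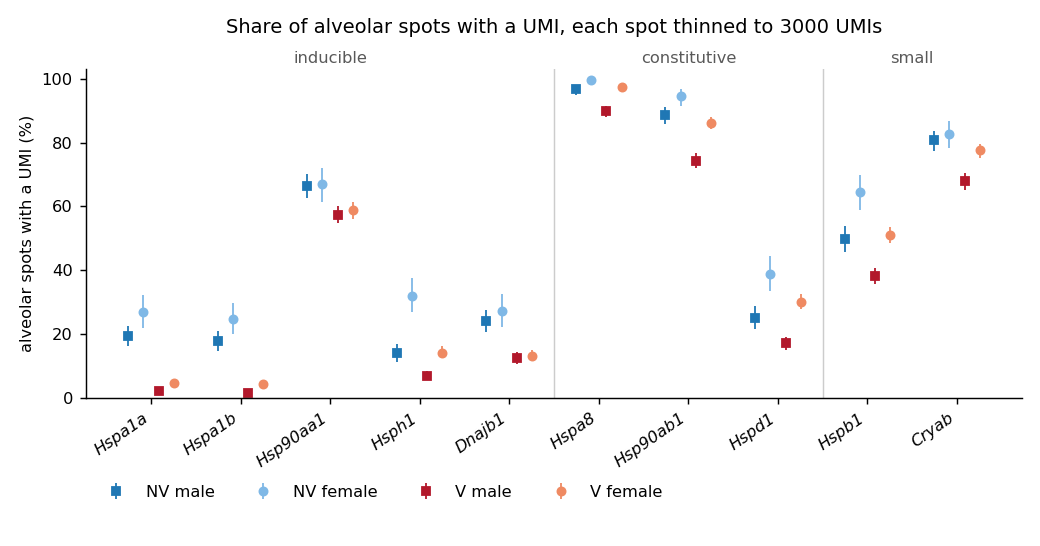
Share of alveolar spots with at least 1 UMI of each member after every spot was thinned to 3000 UMIs, by section, with exact binomial 95% intervals for counting error. Hspa1a and Hspa1b had a UMI in 17.8 to 26.9% of NV spots and 1.61 to 4.79% of V spots.

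Some of the other marker lists also lay apart between the groups in the same spots. The club cell, red blood cell, smooth muscle and brown adipose sums overlapped, with club cell markers at 11257 and 1247 CPM in NV and at 287 and 9368 in V. The 8 immediate-early genes fixed as a sign of handling (Fos, Fosb, Jun, Junb, Egr1, Ier2, Atf3 and Dusp1, all 8 with UMIs) summed to 1098 and 880.5 CPM in NV and to 717 and 533 CPM in V. The 6 cardiac markers, all with UMIs, summed to 2938 and 2099 CPM in NV and to 18.2 and 1768 in V. The 5 alveolar macrophage markers, all with UMIs, summed to 277 and 495 CPM in NV and to 610.3 and 665 in V. The part of handling and of macrophage content in the differences was not tested. With alveolar spots held to cardiac markers under 5000 CPM, the log2 change of Hspa1a was -2.86 and that of Hspa1b -2.90. That cut removed 47 spots of the NV male, 28 of the V female and fewer than 20 of the NV female. It did not even out the cardiac RNA: in the NV male 628 spots stayed at 1000 to 5000 CPM, while all 1564 V male spots lay under 1000. The part of cardiac RNA in the differences was therefore not tested.

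Over whole sections, which differ in the tissue they hold, Hspa1a and Hspa1b again had the largest log2 changes of the 10 members. The class medians were -0.99 for the inducible, -0.47 for the constitutive and -0.69 for the small members, an order other than in alveolar spots. Hspa1a stood at 76.8 and 97.2 CPM in NV and at 7.58 and 19.4 CPM in V, with a log2 change of -2.65 ± 0.59 (SE), and Hspa1b at 59.0, 90.1, 5.05 and 19.4 CPM with -2.55 ± 0.78 (SE). edgeR called 0% of 14570 genes (adjusted p = 0.9997 for both), while DESeq2 called 8 genes and, among the 7 lower in V (0.048% of genes tested), Hspa1a (adjusted p = 0.0169) but no other member. Cryab stood at 811 and 815 CPM in NV and at 383 and 561 CPM in V. Its log2 change was -0.78 ± 0.35 (SE), against -0.23 in alveolar spots alone. The V male, its lowest section, held no cardiac muscle spot. Such spots made up 14.5% and 9.73% of the spots in NV and 5.41% in the V female. Both V sections lay below both NV sections for 7 of 10 members beside 14.4% of genes tested.

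The second comparison set cardiac muscle spots against alveolar spots of the same section, in the 3 sections that held both. Cryab rose most, from 562 to 1799.7 CPM in the NV male, from 510.3 to 2019 in the NV female and from 520.2 to 1563 in the V female. The ratio was 3.20, 3.96 and 3.004 in the 3 sections, and the edgeR log2 change with section as a block was 2.32 ± 0.15 (SE, adjusted p = 4.9e-14). Hspb1 went from 224 to 296, from 342 to 385 and from 228 to 276 CPM, with a log2 change of 0.86 ± 0.11 (SE, adjusted p = 2.3e-07 in edgeR). Hspd1 went from 112 to 144, from 153 to 157 and from 121 to 149.5 CPM, with a log2 change of 0.82 ± 0.11 (SE, adjusted p = 1.4e-07 in edgeR).

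These log2 changes depend on how muscle and lung are put on one scale. Mitochondrial transcripts took 19.8 to 22.5% of UMIs in cardiac muscle spots and 5.45 to 7.89% in the alveolar spots of the same 3 sections, and with scaling by total UMIs the median log2 change of all 13288 genes tested was -0.60, against -0.032 with TMM scaling. On the total-UMI scale the log2 change was 1.75 for Cryab and 0.28 for Hspb1, both still called, and 0.24 for Hspd1, under the threshold of 0.25. All 3 were higher in CPM in 3 of 3 sections, as were 15.4% of genes tested.

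None of the inducible members was higher in muscle under both scalings. Hspa1b was called higher with TMM scaling (log2 change 0.32 ± 0.13 SE, edgeR adjusted p = 0.0358), but its CPM was lower in muscle in 3 of 3 sections (55.7 against 61.3, 73.9 against 105 and 15.9 against 16.7), the total-UMI scale turned its log2 change to -0.26, and DESeq2 did not call it (adjusted p = 0.169). Leaving out the NV male or the V female also ended that call, as did no low-count filter (adjusted p = 0.140 in edgeR), cardiac spots taken from 5000 CPM (0.0749) and no section block (0.81), and leaving out the NV female made calls of Hspa1a (0.39) and Hsph1 (0.33). Hsp90aa1 stood at 191, 258 and 190.1 CPM in muscle against 361, 421 and 293 in alveolar spots. Dnajb1 stood at 56.3, 54.3 and 26.8 CPM in muscle against 86.1, 101 and 52.0. Both were lower in CPM in 3 of 3 sections, with TMM log2 changes of -0.17 ± 0.12 and -0.25 ± 0.12 (SE) that were not called and total-UMI changes of -0.75 and -0.82 that were. With no low-count filter Dnajb1 was also called lower with TMM (-0.32, adjusted p = 0.0375 in edgeR). Hspa1a, Hsph1, Hspa8 and Hsp90ab1 had TMM changes of 0.27, 0.14, 0.30 and 0.27, none called, and total-UMI changes of -0.31, -0.44, -0.28 and -0.30, so their direction turned with the scaling. Hspa1a was lower in CPM in muscle in the NV sections and higher in the V female (a ratio of 1.11). DESeq2 called Hspa8 (0.31, adjusted p = 0.038) and Hsp90ab1 (0.28, adjusted p = 0.0492), and without the V female the TMM change of Hsph1 was -0.054.

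With TMM scaling 4 of 10 members were called higher in muscle (Cryab, Hspb1, Hspd1 and Hspa1b), beside 25.4% of genes tested, and 0 of 10 lower, beside 23.2%. With total-UMI scaling 2 of 10 were called higher (Cryab and Hspb1), beside 12.7%, and 5 of 10 lower (Hspa1a, Hsp90aa1, Hsph1, Dnajb1 and Hsp90ab1), beside 60.6%. Higher calls made up 52.3% of all calls with TMM and 17.3% with total UMIs. The spacing between members does not depend on that choice, and the log2 ratio of Cryab exceeded that of every other member in 3 of 3 sections. In CPM, 6 of 10 members were lower in muscle in 3 of 3 sections, beside 68.2% of genes tested.

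**Figure D4:**
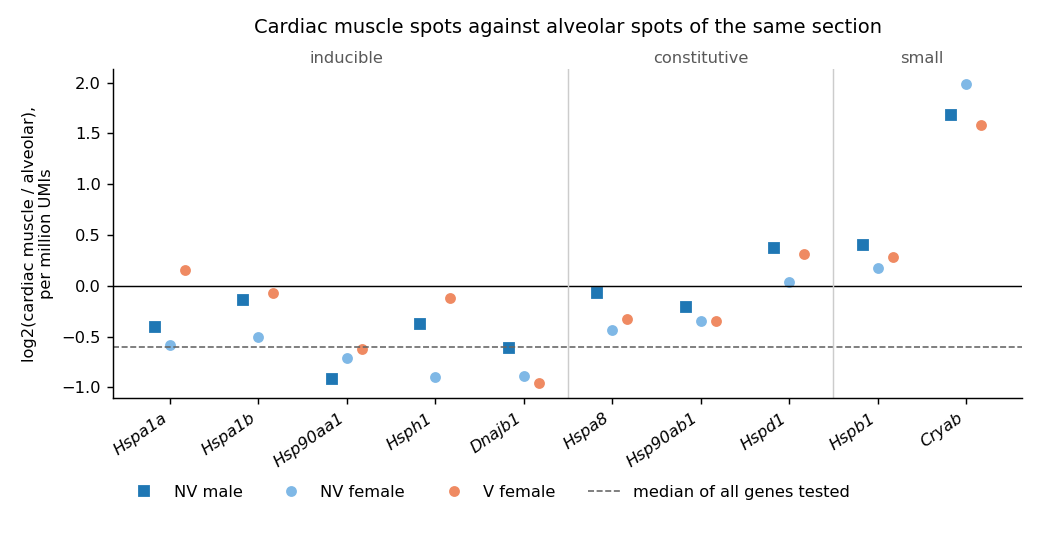
log2 ratio of the CPM in cardiac muscle spots to that in alveolar spots of the same section, for each member in the 3 sections with both regions; the dashed line is the median log2 change of all genes tested on this scale (-0.60). Cryab lies between 1.59 and 1.98 and Hspb1 and Hspd1 above 0 in every section, while Hsp90aa1 and Dnajb1 lie between -0.96 and -0.61.

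Alveolar spots that hold some cardiac RNA carried more Cryab. In alveolar spots with cardiac markers at 5000 CPM or more, Cryab stood at 934 CPM in the NV male (47 spots) and 1039 in the V female (28 spots), against 553 and 504 in spots with 1000 to 5000. The V male, with cardiac markers at 18.2 CPM, still had Cryab at 383 CPM in 4551 UMIs. Both levels describe mixed spots, in which the cell of origin is not seen.

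In muscle, V and NV can only be set side by side, since 1 V section held cardiac muscle. The V female had 21.1 CPM of Hspa1a against 61.6 and 77.1 in the NV male and NV female, 15.9 of Hspa1b against 55.7 and 73.9, and 26.8 of Dnajb1 against 56.3 and 54.3. In these 3 members, and in Hsp90ab1, Hspa8, Hspb1 and Cryab, the V female was the lowest of the 3. Hsp90aa1 was level between the V female and the NV male (190.1 against 190.6 CPM). The share of all genes that were lowest in the V female was not counted. Cardiac markers in these spots were also lowest in the V female, at 17439 CPM against 20927 and 23092. Hsph1 (50.2 against 40.9 and 65.7) and Hspd1 (149.5 against 144 and 157) lay between the NV sections.

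Set against the constitutive members, the inducible members were fewest in the V female. For every 100 UMIs of constitutive members there were 32.1 and 28.7 of inducible members in the alveolar spots of NV and 27.0 and 21.1 in those of V. The V values lay below the NV values, by 0.35 on the log2 scale, a gap little above the 0.25 (SD) between the V sections. With Hspa1a, Hspa1b and Dnajb1 alone as inducible, the figures were 11.4, 10.7, 3.89 and 4.25, a gap of 1.44 on the log2 scale. Hsp90aa1, at 286 to 421 CPM, supplied most of the inducible UMIs in the V sections. In cardiac muscle spots there were 21.6, 22.8 and 18.0 inducible UMIs per 100 (NV male, NV female, V female), below the alveolar spots in 3 of 3 sections. These ratios use UMIs not divided by gene length and scale both classes alike, and no test was made of a score over chosen members.

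**Figure D5:**
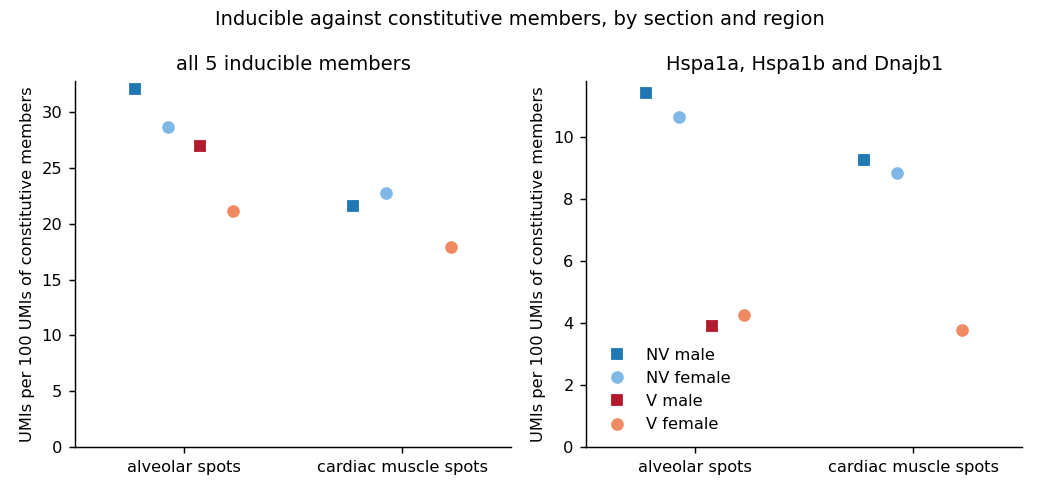
UMIs of inducible members per 100 UMIs of the constitutive members Hspa8, Hsp90ab1 and Hspd1, by section and region, with all 5 inducible members (left) and with Hspa1a, Hspa1b and Dnajb1 (right). With these 3 genes the NV sections lie at 10.7 to 11.4 in alveolar spots and the V sections at 3.89 to 4.25.

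The wider chaperone network was read from 5 lists of 46 genes, all tested. Between V and NV in alveolar spots none of the 46 was called by edgeR or DESeq2. Of all 14348 genes tested, edgeR called 0 and DESeq2 10. Of the 16 genes of the HSF1 axis and its cytosolic cochaperones, 13 had a log2 change below 0, beside 48.7% of all genes tested. Their median was -0.28. Dnaja1, another J-domain partner of HSP70, had -0.84 ± 0.38 (SE) and Dnajb4, of the same family, -0.66 ± 0.21 (SE). The 12 endoplasmic reticulum chaperones had a median of -0.14, the 8 subunits of the CCT chaperonin -0.024 and the 5 genes of the mitochondrial list 0.057, beside 0.0084 over all genes. The largest changes in these lists were -0.28 for Pdia4, -0.26 for Hyou1, -0.19 for Cct2, -0.12 for Cct4, -0.30 for Hspe1 and 0.18 for Trap1. The 5 other small heat shock protein genes had a median of -0.73, with Hspb3 at -1.23 ± 1.38 and Hspb7 at -0.998 ± 0.87 (SE). Hspb7 stood at 53.1 and 40.3 CPM in NV and at 5.30 and 40.4 CPM in V, low in the section without cardiac muscle. Over whole sections none of the 46 was called either, and of all 14570 genes tested edgeR called 0 and DESeq2 8. The largest changes there were -0.73 for Dnaja1, -0.69 for Bag3, -0.31 for Pdia4, 0.23 for Dnajc3, -0.24 for Hspe1, 0.19 for Clpp, -0.19 for Cct2, -0.12 for Cct7, -1.51 for Hspb7 and -1.38 for Hspb3. Hspb7, Hspb3 and Bag3 were higher in cardiac muscle spots (below), which the V male section lacked, and the part of that in their changes was not tested.

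In cardiac muscle all 5 other small heat shock protein genes were called higher than in alveolar spots under both scalings. Of all genes tested, 25.4% were called higher with TMM and 12.7% with total UMIs. Hspb7, a small heat shock protein of heart and skeletal muscle, rose from 53.1 to 488, from 40.3 to 529 and from 40.4 to 472 CPM, a TMM log2 change of 4.05 ± 0.14 (SE). Hspb3, Hspb6, Hspb2 and Hspb8 had TMM log2 changes of 3.57, 3.15, 2.12 and 1.94, and the list's median was 3.15 with TMM and 2.58 with total UMIs. Hspb2 is the head-to-head neighbour of Cryab in the genome, and its level went from 42.1 to 106, from 35.03 to 124 and from 36.05 to 106 CPM.

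All 5 genes of the mitochondrial list were called higher with TMM (Hspa9 1.12, Hspe1 0.96, Trap1 0.75, Lonp1 0.68 and Clpp 0.64), beside 25.4% of all genes tested. Hspa9, the mitochondrial HSP70, and Hspe1, the HSP10 lid of the Hspd1 ring, stayed called with total UMIs (0.55 and 0.39), beside 12.7%. Of the 16 HSF1-axis genes 10 were called higher with TMM and 1 lower, against 1 higher and 6 lower with total UMIs, beside 25.4% and 23.2% of all genes tested with TMM and 12.7% and 60.6% with total UMIs. Bag3, which works with HSPB8 in muscle protein turnover, was called higher under both (1.32 and 0.74), and Dnaja1 was called lower under both (-0.34 and -0.91). The other TMM calls were Ahsa1 0.76, Fkbp4 0.71, Hspa4l 0.51, Stub1 0.47, Stip1 0.47, Dnajb4 0.42, Bag1 0.41, Hspa4 0.35 and Serpinh1 0.27, none of them called higher with total UMIs and Serpinh1 called lower (-0.31). In the CCT list Cct3, Cct7 and Tcp1 were called higher with TMM (0.43, 0.42 and 0.30), 3 of 8 beside 25.4% of all genes. With total UMIs 6 of 8 were called lower, Tcp1 among them (-0.27), beside the 60.6% of all genes. In the endoplasmic reticulum list Hyou1 (-0.59) and Dnajc3 (-0.35) were called lower with TMM and 11 of 12 with total UMIs, beside 23.2% and 60.6% of all genes.

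Across the alveolar spots of a section, the members varied together at most weakly after thinning. The mean correlation over the 4 sections ranged from -0.058 (Hspa1a with Hsp90aa1) to 0.034 (Hsph1 with Dnajb1) over pairs of members. Each section gave 309 to 1400 spots that share a library. The genes most like the summed inducible members, of 4365 ranked, were Tex261, Kcmf1, Gprc5a, Lmo7, Slc29a1, Arf1, Ager, Pdzd2, Ndnf and Drg1, with mean correlations from 0.066 down to 0.060. Correlations this weak in sparse counts are no finding.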

How the data were processed

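Visium UMI counts were measured in 4 mouse lung sections. The deposited files hold raw UMI counts of 32285 genes per spot, made by the authors with Space Ranger on the 10x mm10 (GRCm38) mouse reference, and the authors' later Seurat normalization and batch correction are not in these counts. UMIs were summed per section and region. The sections held 6957392 to 34308556 UMIs in 4933 spots, and 277 to 1167 spot barcodes recur between pairs of sections because slides carry a fixed barcode set. Levels are counts per 1000000 UMIs (CPM). Groups came from the sample labels. Sums were tested with edgeR 4.0.16 (quasi-likelihood, TMM, filterByExpr, section as a block for muscle against alveolar spots) in R 4.3.3, with calls at an adjusted p (Benjamini-Hochberg) under 0.05 and a log2 change above 0.25 in size. This replaces a Wilcoxon test over spots, which share an animal. Alternatives were DESeq2 1.42.0, total-UMI scaling, no low-count filter, other spot definitions, blocks and leaving out sections. On simulated data for the alveolar comparison (200 of 14128 genes changed by 2 on the log2 scale, dispersion 0.05), edgeR recovered 98.5%. The real alveolar sums had a common coefficient of variation of 0.293, a wider spread than that simulated.

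Thinned counts and likeness used 1 random draw of 3000 UMIs per spot. Named genes were the 10 members, the called genes of each pathway list or its 2 largest changes, and the 10 genes most correlated with the summed inducible members. The members and lists were chosen with earlier results of these data known. Alternatives chosen after seeing the data were fits without mitochondrial genes, with alveolar spots low in cardiac markers, and with Hspa1a and Hspa1b summed. P-values of V against NV measure only the spread between these 4 sections, 1 per mouse. Those of muscle against alveolar spots measure only how that difference varies over the 3 sections with both regions. The genome annotation was GENCODE vM21, and numpy 2.4.6, scipy 1.17.1, pandas 2.3.3 and matplotlib drew and summed the rest.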

Additional observations from a re-analysis of the deposited data

Results flagged for a closer look

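For Cryab in alveolar spots, the log2 ratio of V to NV was -0.55 between the males and 0.028 between the females, values that differ in sign. The 2 female levels have overlapping counting intervals, so only the males differed beyond counting error, from 1 mouse per sex and group, and the difference between the sexes was not tested. The section of the V male also held no cardiac muscle, and the part of that in the ratio was not tested.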

How the results depend on the processing

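Between V and NV, no gene was called under total-UMI scaling in either comparison, nor in alveolar spots with the stricter definition, with low cardiac markers, or with Hspa1a and Hspa1b summed. DESeq2 called 8 genes over whole sections and 10 in alveolar spots, and 5 were called in alveolar spots with no low-count filter, Hspa1a and Hspa1b among them. Leaving out 1 section gave 0 to 811 calls over whole sections and 0 to 1483 in alveolar spots, with the lone sample assumed to vary like the other group. With the replicate block, in which the number is also the sex, 0 genes were called in either; deviations of same-numbered sections correlated at 0.32 over whole sections and 0.083 in alveolar spots, with 2 pairs, and the labels name no animal, litter or day that same-numbered sections share besides sex. Hspd1 over whole sections ranged from -1.30 to 0.16 when a section was left out, the positive value without the V male. The cause was not tested.

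Between muscle and alveolar spots 6464 genes were called. Total-UMI scaling called 9748, and fits with a section left out called 4953 to 5910. Without the section block (no replicate block) 4844 were called. Total-UMI scaling turned Hspa1a to -0.31, Hspa1b to -0.26, Hsph1 to -0.44, Hspa8 to -0.28 and Hsp90ab1 to -0.30, by the shift of all genes that this scaling makes. Hsph1 ranged from -0.054 to 0.33 with a section left out. The ratio of inducible to constitutive members between V and NV moved from -0.35 to -1.44 with Hspa1a, Hspa1b and Dnajb1 alone as inducible, and kept its sign with Hspa8 and Hsp90ab1 alone as constitutive and with thinned spots. The fewest UMIs of any member behind an alveolar value were 60, for Hspa1b in the V male.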

Other observations

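Spots that were neither alveolar nor cardiac muscle numbered 36 and 79 in the NV sections and 1 and 322 in the V sections (male, then female). Hspa1a stood there at 58.8 and 74.1 CPM in NV and 19.5 CPM in the V female, and Hspa1b at 24.2 (7 UMIs), 71.0 and 24.9 CPM. Hspd1 stood at 118, 256 and 218 CPM in these spots. They hold a mixture that differs between sections: club cell markers summed to 106169 CPM in the NV male and 6143 in the NV female.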
